A study of Mus musculus with 20 samples.

Results

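The genes described here are 10 regulators of entry into the cell cycle: the 3 D cyclin genes Ccnd1, Ccnd2 and Ccnd3, the CDK inhibitor genes Cdkn2a, Cdkn2b and Cdkn2c of the INK4 family, Cdkn1a and Cdkn1b of the CIP/KIP family, and Trp53 with Mdm2. They were chosen by name, and all 10 were found among the 45706 gene identifiers of the count files. RNA sequencing had been done on 8 mammary tumors and on 12 libraries of cultured tumor cells of the MMTV-PyMT mouse, in which the mouse mammary tumor virus promoter drives the polyoma middle T oncogene in mammary epithelium. All animals carried this oncogene on a C57BL/6N background. The 4 MMTV-cre;Ctsd-/- tumors came from 18-week-old mice in which a Cre recombinase under the same kind of promoter had deleted floxed Ctsd, the gene of the lysosomal protease cathepsin D, in mammary epithelium, while stromal cells kept it. The 4 control tumors, of the same age, were competent for cathepsin D. The cultured cells were 1 line from a Ctsd+/+ tumor and 1 line from an MMTV-cre;Ctsd-/- tumor, both immortalized spontaneously, so that genotype and cell line cannot be told apart. Each line was kept in 1% FCS (fetal calf serum) for 10 days, called 1% FCS, or for 12 weeks, called 1% FCS LT, with 3 libraries in each of these 4 groups. Replicates of a line are repeat cultures of that line, and their spread does not cover differences between lines.

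D cyclins bind and activate the kinases CDK4 and CDK6, which phosphorylate the retinoblastoma protein and so release the E2F factors that switch on the genes of DNA replication. The INK4 proteins block CDK4 and CDK6 directly, whereas p21 (Cdkn1a) and p27 (Cdkn1b) bind a wider range of cyclin-CDK complexes. The tumor suppressor p53 (Trp53) induces Cdkn1a and its own ubiquitin ligase Mdm2, and the ARF protein, made from the same locus as p16Ink4a, restrains Mdm2. In luminal mammary cells cyclin D1 is the D cyclin best known for its part in growth of the gland and in mammary cancer.

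The INK4 genes with the largest differences between the lines in 1% FCS, Cdkn2b and Cdkn2a, lie next to each other on mouse chromosome 4, and their start regions are shown because they are read from separate starts. In GRCm38 Cdkn2b spans chr4:89306299-89311039 and Cdkn2a chr4:89274471-89294653, both on the minus strand. Cdkn2a has 2 starts, and its gene count pools the p19Arf and p16Ink4a transcripts, which share exons. The windows are RefSeq sequences of GRCm38.p6, each 300 bases long, from 250 bases before to 50 bases after a start, written 5′ to 3′ on the gene's strand, at chr4:89310983-89311282 for Cdkn2b and at chr4:89294570-89294869 and chr4:89282143-89282442 for the upstream and downstream starts of Cdkn2a. Capitals mark each match to the full cyclic AMP response element TGACGTCA or, on either strand, to the GC box GGGCGG.
Cdkn2b: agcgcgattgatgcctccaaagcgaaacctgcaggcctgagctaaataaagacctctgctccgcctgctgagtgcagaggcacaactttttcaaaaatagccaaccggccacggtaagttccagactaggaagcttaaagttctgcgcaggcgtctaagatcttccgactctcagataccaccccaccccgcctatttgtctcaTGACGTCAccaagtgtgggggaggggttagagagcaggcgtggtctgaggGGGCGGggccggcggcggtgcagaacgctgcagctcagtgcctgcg
Cdkn2a, upstream start: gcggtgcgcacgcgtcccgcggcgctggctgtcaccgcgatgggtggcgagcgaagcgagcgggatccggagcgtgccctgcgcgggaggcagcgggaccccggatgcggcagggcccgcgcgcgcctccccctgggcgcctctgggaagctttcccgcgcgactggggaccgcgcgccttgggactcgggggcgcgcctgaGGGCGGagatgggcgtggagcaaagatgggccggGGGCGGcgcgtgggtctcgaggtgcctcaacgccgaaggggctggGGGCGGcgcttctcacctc
Cdkn2a, downstream start: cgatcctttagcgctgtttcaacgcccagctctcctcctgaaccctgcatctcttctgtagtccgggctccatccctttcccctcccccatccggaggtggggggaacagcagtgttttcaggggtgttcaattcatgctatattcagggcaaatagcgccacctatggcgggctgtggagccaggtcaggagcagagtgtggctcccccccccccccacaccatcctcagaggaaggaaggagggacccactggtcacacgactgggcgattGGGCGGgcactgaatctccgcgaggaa
The full cyclic AMP response element was found in the Cdkn2b window, beginning at position -46 from the start, and in no other of the 12 windows of the 8 genes with an entry. Ccnd1 and Ccnd2 had no entry and were not searched. The full element occurs in 1.79% of all 32851 RefSeq promoter windows of the same length. Its shorter form TGACG, held by 20.8% of all windows, also occurred in the windows of Cdkn1b and Mdm2 and in both of Ccnd3. A GC box, which 35.7% of all windows hold, was present in all 3 of the windows shown, and the Cdkn2b window had 1 at position +5. Neither of the E2F sequences searched (TTTCGCGC and TTTGGCGC, both strands) occurred in any window of the 8 genes. These are matches of letters only.

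Total counts ran from 49725437 to 64291587 in the tumors and from 33622831 to 40239762 in the cells. Levels are given as normalised CPM, counts scaled to library size and adjusted by the trimmed mean of M values, computed separately for tumors and cells. Ctsd itself lay between 1267 and 4199 CPM in the 6 Ctsd+/+ cell libraries and between 114 and 192 CPM in the 6 Ctsd-/- libraries, and between 1781 and 2617 CPM in control tumors against 360 to 1295 CPM in MMTV-cre;Ctsd-/- tumors. Marker genes of other cell types set 1 group apart: the 8 fibroblast markers summed to 1178 to 3310 CPM in 1% FCS Ctsd+/+ cells. Over the other 9 cell libraries they summed to 3.05 to 99.8 CPM. All 5 of these markers that could be tested were called lower in Ctsd-/- cells in 1% FCS (edgeR, median log2 difference -8.87), against 25.1% of all genes. Of the others, Lum and Dpt were at 0 in 1% FCS Ctsd+/+ cells. The 9 luminal epithelial markers summed to 1012 to 1856 CPM in 1% FCS Ctsd+/+ cells and to 5200 to 11055 CPM in the other 9 cell libraries, with none of them at or under 3 counts in any group. Macrophage markers summed to 6.51 to 63.9 CPM in the cells, with the highest sums, 54.9 to 63.9 CPM, in 1% FCS LT Ctsd+/+ cells. B cell markers summed to 0.532 CPM or less. The macrophage marker C1qc was at 0 in all 4 cell groups. Adgre1 and C1qa were at 0 in all 1% FCS Ctsd+/+ libraries but not in all 1% FCS LT Ctsd+/+ libraries. The part of these marker differences in the results below was not tested.

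**Figure D1:**
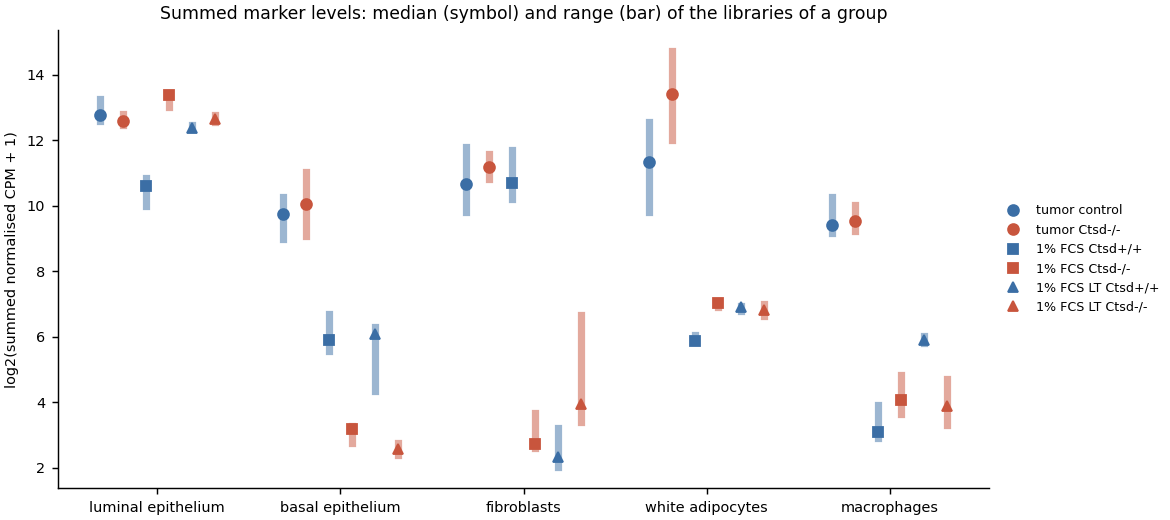
Summed normalised CPM of 5 marker lists on a log2 scale (y axis) for the 6 groups of libraries within each list (x axis), with the median as a symbol and the range over libraries as a bar. The 1% FCS Ctsd+/+ cells reached up to 3310 CPM of fibroblast markers and stood below the other cell groups in luminal markers.

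In 1% FCS, 5 of the 10 genes differed between Ctsd-/- and Ctsd+/+ cells: Cdkn2a, Cdkn2b and Ccnd1 were higher and Ccnd2 and Cdkn2c lower in Ctsd-/- cells (edgeR quasi-likelihood test, adjusted p under 0.05). Over all 15178 genes tested, 48.5% were called in this comparison, so that 5 of 10 is close to the share among all genes. After long-term culture 6 of the 10 differed, against 39.6% of all genes: Cdkn2b, Ccnd1 and Trp53 were higher and Ccnd2, Cdkn2c and Ccnd3 lower in Ctsd-/- cells. The 5 genes called in 1% FCS all differed by more than 1 on the log2 scale, as did 25% of all genes, while 3 did so in 1% FCS LT, where 19.4% of all genes did. The libraries of the lines did not overlap for 5 of the 10 genes in 1% FCS, against 55.2% of all genes, and for 8 in 1% FCS LT, against 54.2%. The plot of levels in every library shows which of these gaps are wider than the spread of the libraries.

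**Figure D2:**
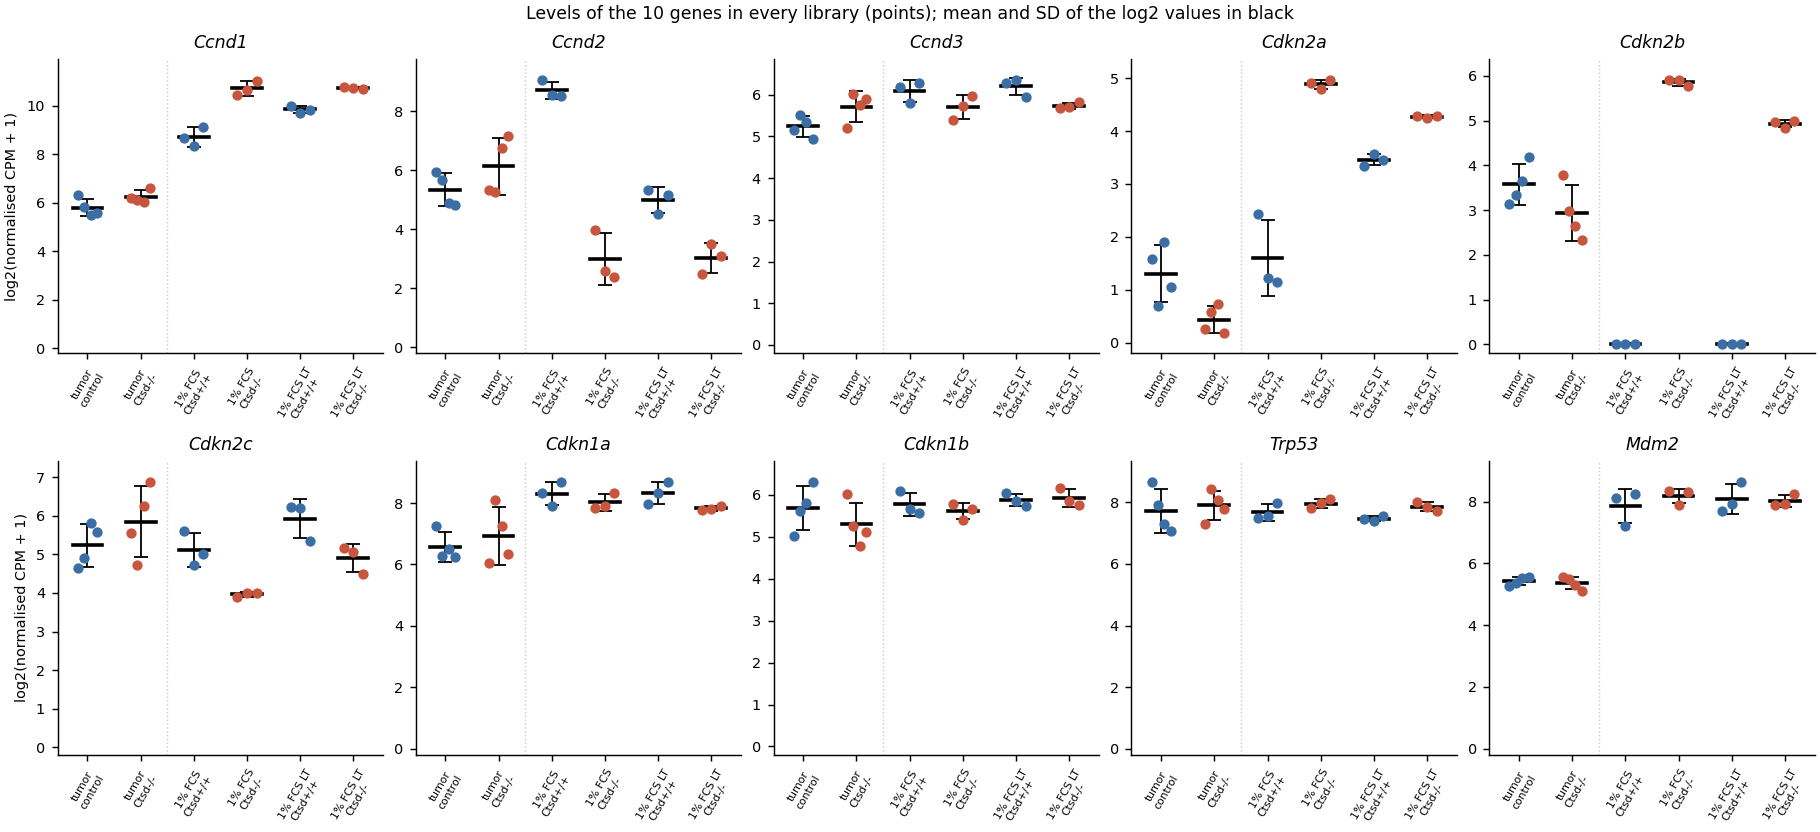
Level of each of the 10 genes as log2(normalised CPM + 1) on the y axis in every library (points) of the 6 groups on the x axis, with the mean and SD in black and control or Ctsd+/+ libraries in blue and Ctsd-/- in red. Tumor and cell libraries were normalised separately. Cdkn2b was at 0 in all 6 Ctsd+/+ cell libraries, and Ccnd2 was highest in 1% FCS Ctsd+/+ cells.

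Cyclin D1, encoded by Ccnd1 on chromosome 7, was the main D cyclin transcript in every cell group when levels were set per kilobase of exon. In CPM, Ccnd2 was above Ccnd1 in replicates 1 and 2 of 1% FCS Ctsd+/+ cells (528 against 408 and 376 against 322). In 1% FCS the 3 Ctsd+/+ libraries held 408, 322 and 562 CPM of Ccnd1 and the 3 Ctsd-/- libraries 1398, 1606 and 2102 CPM. The lowest Ctsd-/- library lay above the highest Ctsd+/+ library, and the difference was 1.98 ± 0.207 on the log2 scale (SE, adjusted p = 1.40e-05, edgeR). In 1% FCS LT the Ctsd+/+ libraries had risen to 1014, 841 and 914 CPM while the Ctsd-/- libraries stood at 1761, 1674 and 1653 CPM. The groups were again apart, with a smaller difference of 0.88 ± 0.201 (edgeR adjusted p = 0.0046). The narrowing came with the Ctsd+/+ line: its Ccnd1 was 1.10 ± 0.202 higher on the log2 scale in 1% FCS LT than in 1% FCS (edgeR adjusted p = 0.000926), whereas in the Ctsd-/- line the change was -0.01 ± 0.199 (edgeR adjusted p = 0.998). The test of the difference between the 2 genotype differences gave -1.10 ± 0.283 (edgeR adjusted p = 0.0120), a test in which 30.3% of all genes were called.

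Cyclin D2, encoded by Ccnd2 on chromosome 6, changed in the opposite direction and by more. The 1% FCS Ctsd+/+ libraries held 528, 376 and 367 CPM, against 14.9, 5.04 and 4.20 CPM in the Ctsd-/- libraries. No library of either group came near the other, and the log2 difference was -5.71 ± 0.517 (edgeR adjusted p = 4.94e-06). Ctsd-/- replicate 1 was the highest of its group, and without it the difference was -6.51. In 1% FCS LT, Ccnd2 of the Ctsd+/+ line had come down to 39.6, 21.8 and 35.1 CPM, a change of -3.72 ± 0.467 on the log2 scale within that line (edgeR adjusted p = 6.30e-05). The Ctsd-/- line remained at 4.55, 10.2 and 7.64 CPM (-0.12 ± 0.445 against its 1% FCS libraries, edgeR adjusted p = 0.928). The lines therefore still differed after 12 weeks, by -2.11 ± 0.449 (edgeR adjusted p = 0.00298), and the difference had become smaller by 3.60 ± 0.628 (edgeR adjusted p = 0.00128). Leaving out Ctsd-/- replicate 1 of 1% FCS moved this last value to 4.41. The group with high Ccnd2 was also the group with high fibroblast markers. Both were lower in the 1% FCS LT Ctsd+/+ libraries, where those markers summed to 3.05 to 8.37 CPM. A link between Ccnd2 and these markers was not tested.

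Cyclin D3, encoded by Ccnd3 on chromosome 17, varied little. Its 1% FCS levels were 71.7, 54.7 and 77.0 CPM in Ctsd+/+ and 40.9, 52.4 and 61.4 CPM in Ctsd-/- libraries, which overlap (log2 difference -0.40 ± 0.168, edgeR adjusted p = 0.0706). After long-term culture the values were 77.4, 80.4 and 61.0 CPM against 50.6, 50.9 and 55.5 CPM, and the groups were apart by -0.48 ± 0.168 (edgeR adjusted p = 0.0400). This call was lost without any 1 of 5 of the 6 libraries compared (adjusted p from 0.0648 to 0.133) and with counts taken without strand (adjusted p = 0.0615).

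Put on a scale per length (CPM per kilobase of exon), the make-up of the D cyclin transcripts differed between 1 group and the rest of the cells. Ccnd1 made up 62.8% ± 7.54 (SD, n = 3) of the summed D cyclin level and Ccnd2 31.8% ± 7.44 in 1% FCS Ctsd+/+ cells. The corresponding shares in the Ctsd-/- line at that time were 98.1% ± 0.212 and 0.259% ± 0.231. After long-term culture the Ctsd+/+ line had moved to 94.3% ± 0.416 Ccnd1 and 1.63% ± 0.353 Ccnd2, and the Ctsd-/- line stood at 98.2% ± 0.181 and 0.218% ± 0.0870. The sum over the 3 genes was 144 ± 27.01 CPM per kilobase in 1% FCS Ctsd+/+ cells, 208 ± 19.3 in their 1% FCS LT libraries, and 368 ± 77.5 and 367 ± 11.7 in the Ctsd-/- line. These shares are descriptions without a test.

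**Figure D3:**
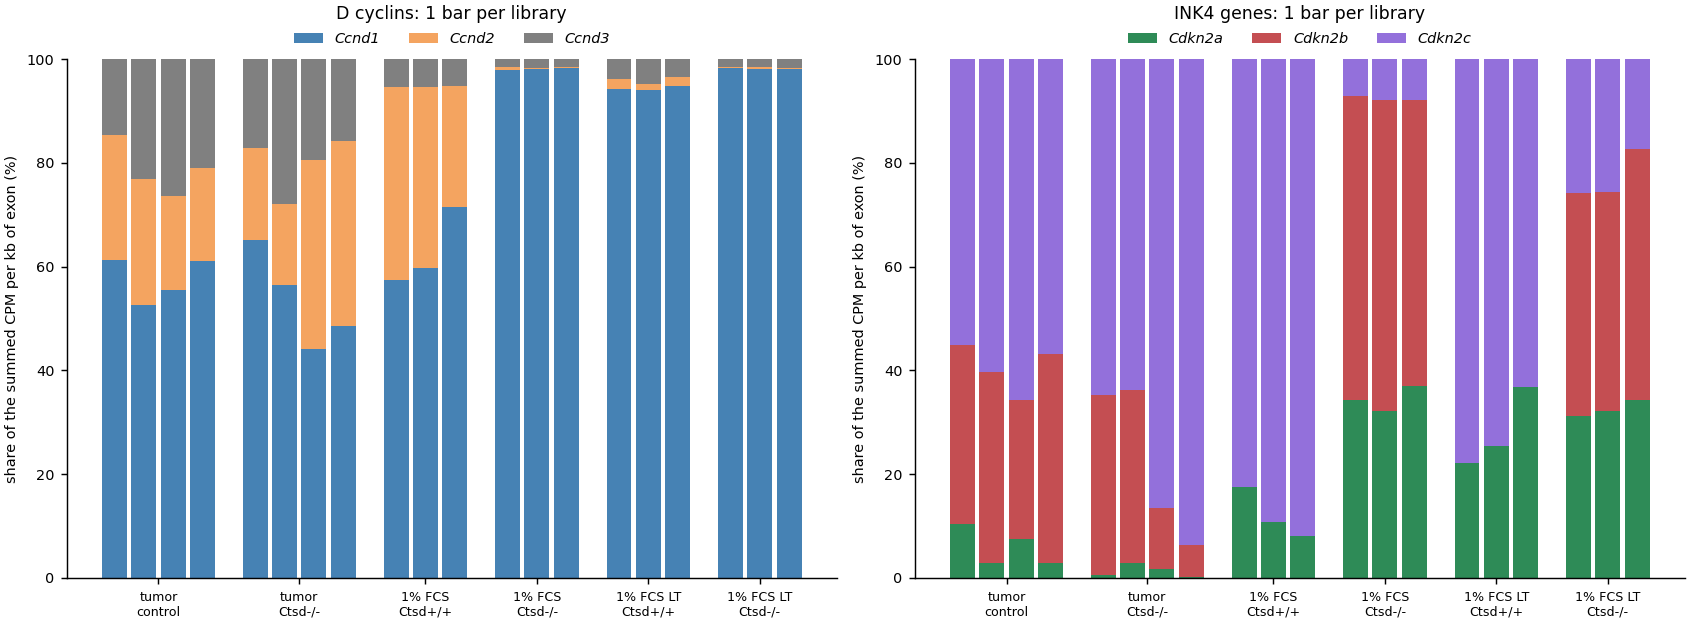
Share of each gene in the summed CPM per kilobase of exon (y axis, percent) of the D cyclins (left) and of Cdkn2a, Cdkn2b and Cdkn2c (right, INK4 panel), with 1 bar for each library, grouped along the x axis. Cdkn2d, also an INK4 gene, is not in the sum. Ccnd2 takes 31.8% on average in 1% FCS Ctsd+/+ cells and 1.63% or less in the other cell groups, and Cdkn2b is missing from the Ctsd+/+ bars of the INK4 panel.

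Cdkn2b, which encodes the CDK4 and CDK6 inhibitor p15Ink4b, gave the widest gap between the lines. It had 0 counts in each of the 6 Ctsd+/+ cell libraries, in 1% FCS and in 1% FCS LT alike. The Ctsd-/- libraries held 2414, 2141 and 1810 counts in 1% FCS, which is 58.7, 58.6 and 53.5 CPM, and 1260, 1076 and 1277 counts in 1% FCS LT, which is 30.2, 27.7 and 30.9 CPM. Set against a floor of 3 counts per library, the level was at least 622-fold higher in Ctsd-/- cells in 1% FCS (edgeR adjusted p = 4.96e-08) and at least 365-fold higher in 1% FCS LT (edgeR adjusted p = 1.00e-07). These bounds cover counting error only. Within the Ctsd-/- line Cdkn2b was lower after long-term culture (log2 change -0.94 ± 0.116, edgeR adjusted p = 0.0120), and it was the only 1 of the 10 genes called there, where 2.38% of all genes were called, 1.57% higher and 0.81% lower, and 1.48% with a change past 1. Cdkn2a, Cdkn2b and Cdkn2c were the 3 genes without overlap between these groups, against 25.4% of all genes. Without Ctsd-/- replicate 2 or 3 of 1% FCS, or replicate 2 of 1% FCS LT, this adjusted p was 0.0643, 0.0539 or 0.0597, with log2 changes from -0.99 to -0.90.

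On chromosome 4 Mtap, which encodes the methylthioadenosine phosphorylase and lies on the other side of Cdkn2a, was counted in the Ctsd+/+ cells. It had 5124 to 8708 counts in 1% FCS and 1281 to 1590 counts in 1% FCS LT. Dmrta1, the next protein-coding gene on the opposite side of Cdkn2b, was low, with 1 to 8 and 9 to 31 counts in the same groups. It had 0 counts in all Ctsd-/- cell libraries. All 8 tumors had Cdkn2b reads, 241 to 836 counts.

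Cdkn2a, the adjacent gene for p16Ink4a and p19Arf, was also higher in Ctsd-/- cells in 1% FCS but was measured in every library. Its levels were 4.38, 1.34 and 1.20 CPM in Ctsd+/+ and 28.9, 26.6 and 30.2 CPM in Ctsd-/- libraries. The groups were far apart (3.63 ± 0.390 on the log2 scale, edgeR adjusted p = 1.70e-05), and without Ctsd+/+ replicate 1, the highest of its group, the difference was 4.49. After long-term culture the Ctsd+/+ libraries had 9.19, 10.8 and 10.0 CPM and the Ctsd-/- libraries 18.5, 17.9 and 18.5 CPM. Every Ctsd-/- library was still above every Ctsd+/+ library, but the log2 difference of 0.87 ± 0.347 did not pass the threshold in the fit over all 12 cell libraries (edgeR adjusted p = 0.0667). It passed in 6 of 16 other settings, among them the edgeR fit of these 6 libraries alone (adjusted p = 0.00134) and limma-voom (adjusted p = 0.00774). In the other 10 it did not pass (adjusted p up to 0.157). Within the Ctsd+/+ line Cdkn2a rose by 2.12 ± 0.374 (edgeR adjusted p = 0.000700; 2.97 without 1% FCS replicate 1), and the genotype differences at the 2 times differed by -2.77 ± 0.506 (edgeR adjusted p = 0.00174; -3.62 without 1% FCS Ctsd+/+ replicate 1). The change in the Ctsd-/- line was -0.65 ± 0.343 (edgeR adjusted p = 0.357).

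Cdkn2c, which encodes p18Ink4c and lies elsewhere on chromosome 4, ran the other way. In 1% FCS the Ctsd+/+ libraries had 47.4, 25.6 and 31.5 CPM and the Ctsd-/- libraries 13.8, 15.1 and 14.9 CPM. The Ctsd-/- values were all lower, by 1.26 on the log2 scale on average (-1.26 ± 0.279, edgeR adjusted p = 0.0030). The 1% FCS LT levels were 74.2, 72.9 and 39.5 CPM against 35.1, 32.4 and 21.5 CPM, again without overlap (-1.07 ± 0.275, edgeR adjusted p = 0.00905). Both lines had more Cdkn2c after long-term culture: the change was 0.84 ± 0.274 in the Ctsd+/+ line (edgeR adjusted p = 0.0255) and 1.02 ± 0.278 in the Ctsd-/- line, which did not pass (edgeR adjusted p = 0.0780). The latter did pass with DESeq2 (adjusted p = 0.0103), with no filter on low counts (0.0139), in the 8 libraries that share a library code (0.00530), with the code as a term (0.00550) and in the fit of these 6 libraries alone (0.0278). In the other 11 of 16 settings it did not pass (adjusted p up to 0.234). The Ctsd+/+ call rested on its libraries, since the adjusted p lay between 0.0749 and 0.0957 without any 1 of 4 of them (replicate 2 or 3 of 1% FCS, replicate 1 or 2 of 1% FCS LT). The same call was lost in the edgeR fit of only the groups compared (adjusted p = 0.0627). These Ctsd+/+ groups overlapped, with 39.5 CPM in 1% FCS LT replicate 3 and 47.4 CPM in 1% FCS replicate 1. The genotype difference did not differ detectably between the times (0.19 ± 0.387, edgeR adjusted p = 0.755).

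Over the 3 INK4 genes the make-up thus differed between the lines. On the scale per length Cdkn2c made up 87.9% ± 4.86 (SD, n = 3) of the sum in 1% FCS Ctsd+/+ cells and 7.67% ± 0.485 in Ctsd-/- cells, where Cdkn2b made up 57.9% ± 2.43 and Cdkn2a 34.5% ± 2.35. After 12 weeks Cdkn2c was 71.9% ± 7.68 of the Ctsd+/+ sum and 22.9% ± 4.79 of the Ctsd-/- sum. The sum of the 3 genes was 14.9 ± 5.67 CPM per kilobase in 1% FCS Ctsd+/+ cells and 70.8 ± 1.15 in Ctsd-/- cells, and 31.7 ± 7.34 against 47.9 ± 2.37 in 1% FCS LT. The ranges of the Ctsd+/+ and Ctsd-/- sums did not overlap at either time.

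Of the CIP/KIP genes, Cdkn1a for p21, a main p53 target on chromosome 17, held similar levels in all cell groups. In 1% FCS the Ctsd+/+ libraries had 321, 241 and 408 CPM and the Ctsd-/- libraries 226, 239 and 319 CPM, which overlap (-0.31 ± 0.213, edgeR adjusted p = 0.257). In 1% FCS LT the values were 250.2, 322 and 411 CPM against 218, 222 and 239 CPM. There the Ctsd-/- libraries all lay below the Ctsd+/+ libraries, by -0.53 ± 0.214, which did not pass (edgeR adjusted p = 0.0665). It passed in 5 of 16 other settings, among them DESeq2 (adjusted p = 0.0340), the edgeR fit of these 6 libraries alone (adjusted p = 0.0308) and the replicate number as a block (adjusted p = 0.0210). In the other 11 it did not pass, with an edgeR adjusted p of 0.278 in the 8 libraries that share a library code.

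Cdkn1b for p27, on chromosome 6, moved least between the lines. The 1% FCS levels were 67.2, 49.5 and 46.4 CPM in Ctsd+/+ and 53.8, 41.0 and 49.8 CPM in Ctsd-/- libraries, and in 1% FCS LT 64.5, 57.1 and 52.4 CPM against 70.6, 57.0 and 52.9 CPM. The groups overlapped at both times, and the differences were -0.17 ± 0.165 (edgeR adjusted p = 0.409) and 0.05 ± 0.165 (edgeR adjusted p = 0.824). Its group means over the 4 cell groups spanned 0.318 on the log2 scale, against 10.1 for Cdkn2b, 5.92 for Ccnd2, 3.85 for Cdkn2a, 2.03 for Cdkn2c and 2.02 for Ccnd1.

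Trp53, on chromosome 11, was read at 178, 187 and 252 CPM in 1% FCS Ctsd+/+ and at 223, 249 and 272 CPM in Ctsd-/- libraries, with overlap (0.27 ± 0.139, edgeR adjusted p = 0.131). In 1% FCS LT the libraries were apart, 176, 166 and 186 CPM against 257, 231 and 209 CPM, a difference of 0.40 ± 0.140 that passed (edgeR adjusted p = 0.0391). The call was lost without any 1 of 5 of these 6 libraries, all but Ctsd-/- replicate 3 (adjusted p from 0.0563 to 0.129). Mdm2, on chromosome 10, had 275, 147 and 302 CPM in 1% FCS Ctsd+/+ and 322, 238 and 313 CPM in Ctsd-/- libraries, and 205, 243 and 396 CPM against 234, 241 and 303 CPM in 1% FCS LT. Neither difference passed (0.27 ± 0.281 and -0.12 ± 0.281, edgeR adjusted p = 0.448 and 0.772), and the ranges overlapped at both times.

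**Figure D4:**
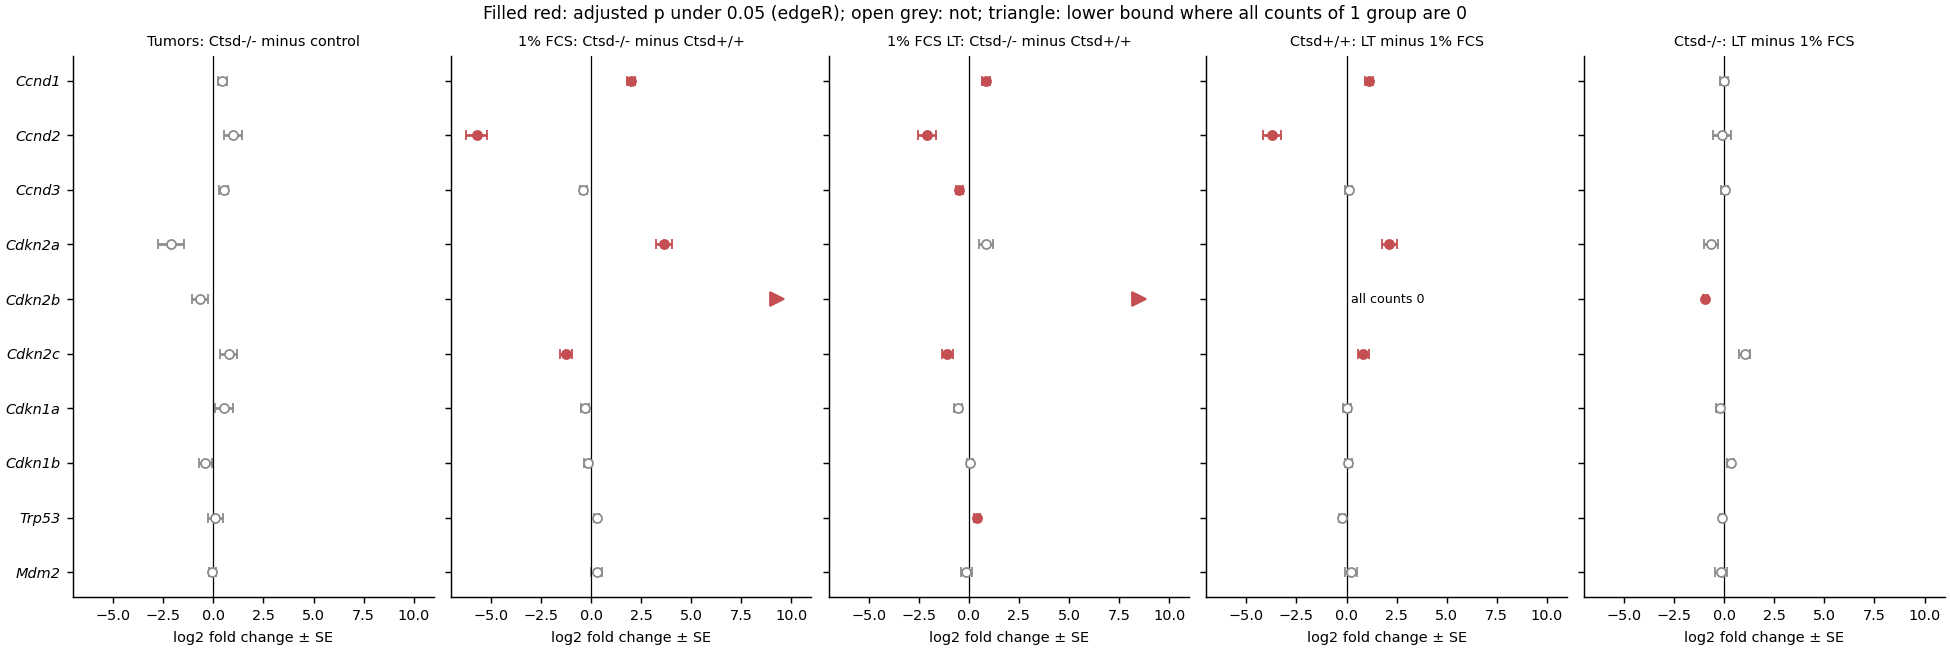
Log2 fold change with its SE (x axis) of each of the 10 genes (y axis) in 5 comparisons, from the edgeR fits. Filled red points passed an adjusted p of 0.05, and triangles give the lower bounds for Cdkn2b where 1 group had 0 counts. The points farthest to the left are those of Ccnd2 in 1% FCS (-5.71) and with time in Ctsd+/+ cells (-3.72).

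Read along culture time, the Ctsd+/+ line had 4 of the 10 genes called (Cdkn2a, Cdkn2c and Ccnd1 higher and Ccnd2 lower in 1% FCS LT), against 46.4% of all genes (23% higher and 23.4% lower), and Cdkn2b could not be tested there because all counts were 0. The change was past 1 on the log2 scale for Cdkn2a, Ccnd1 and Ccnd2, against 23.4% of all genes, and the same 3 genes had groups without overlap, against 53.7% of all genes. The order of the group means of Cdkn2a ran from 1% FCS Ctsd-/- through 1% FCS LT Ctsd-/- and 1% FCS LT Ctsd+/+ down to 1% FCS Ctsd+/+, with no overlap between neighbours. For Ccnd1 the order was the same, but the ranges of the Ctsd-/- groups overlapped. For Ccnd2 the order was 1% FCS Ctsd+/+, 1% FCS LT Ctsd+/+ and then both Ctsd-/- groups, which overlapped. Neighbouring groups overlapped throughout for Cdkn1a, Cdkn1b, Ccnd3, Trp53 and Mdm2. For Cdkn2c, 1% FCS Ctsd-/- cells stood below the 3 other groups, whose neighbouring ranges overlapped.

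A share of these libraries carried different library codes in the labels, whose meaning the labels do not give: replicate 1 of both 1% FCS groups, replicate 3 of both 1% FCS LT groups, and the remaining 8 cell libraries. Those 8 libraries are replicates 2 and 3 of the 1% FCS groups and replicates 1 and 2 of the 1% FCS LT groups. Within them the calls in 1% FCS were again 5, against 6778 of all 15166 genes. The log2 differences were 4.48 for Cdkn2a, -0.93 for Cdkn2c, 2.07 for Ccnd1 and -6.33 for Ccnd2. For 1% FCS LT 7 were called within the 8 libraries, against 5653 of 15166 genes, Cdkn2a being the added gene (0.86, edgeR adjusted p = 0.00350).

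Genes that act with the 10 showed the following. Of 36 S phase and mitosis genes, which rise when cells replicate and divide, 13 were lower and 0 higher in Ctsd-/- than in Ctsd+/+ cells in 1% FCS. Over all genes 25.1% were lower and 23.5% higher. The median log2 difference of the 36 was -0.71, against 0.000246 over all genes. Cdc20, an activator of the anaphase-promoting complex, had 139 ± 29.0 CPM (SD, n = 3) in Ctsd+/+ and 43.8 ± 7.58 CPM in Ctsd-/- cells (-1.67 ± 0.352, edgeR adjusted p = 0.00219). Cdc6, which loads the replicative helicase, differed by -1.59 ± 0.315 (edgeR adjusted p = 0.0014) and Mybl2, an activator of mitotic genes, by -1.53 ± 0.389 (edgeR adjusted p = 0.00674). After long-term culture 3 of the 36 were lower and 1 higher, with a median of -0.03, against 19.1% lower and 20.5% higher among all genes. Cenpa, the centromeric histone, was among the lower (-1.19 ± 0.301, edgeR adjusted p = 0.00817). Pcna, the sliding clamp of DNA polymerase, was the higher (0.53 ± 0.170, edgeR adjusted p = 0.0276). With time 0 of the 36 were called in the Ctsd-/- line with edgeR, while 12 had an unadjusted p under 0.1, all 12 upward (median 0.35). Over all genes 3964 of 15178 had an unadjusted p under 0.1. In the Ctsd+/+ line Bub1b (-1.22 ± 0.274, edgeR adjusted p = 0.00342) and Bub1 (-1.08 ± 0.275, edgeR adjusted p = 0.00702), kinases of the spindle checkpoint, were lower. There 11 of the 36 were lower and 1 higher at an unadjusted p under 0.1 (median -0.27), and 9149 of 15178 genes reached that p in either direction. The genotype difference shifted upward between the times for 6 of the 36, among them Bub1b (1.53 ± 0.385, edgeR adjusted p = 0.011), Cdc6 (1.52 ± 0.437, edgeR adjusted p = 0.0211) and Rrm2, a subunit of ribonucleotide reductase (1.52 ± 0.498, edgeR adjusted p = 0.0375), and downward for 0, against 16.1% and 14.1% of all genes.

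Among 22 other genes of the axis from CDK4 and CDK6 to E2F, 6 were lower and 3 higher in Ctsd-/- cells in 1% FCS, against 25.1% and 23.5% of all genes. Ccne2, the gene of cyclin E2 and an E2F target, had 16.4 ± 6.80 CPM in Ctsd+/+ and 2.91 ± 1.09 CPM in Ctsd-/- cells (-2.50 ± 0.448, edgeR adjusted p = 0.000735). Rb1, the gene of the retinoblastoma protein, went from 33.6 ± 10.5 to 11.4 ± 1.25 CPM (-1.56 ± 0.216, edgeR adjusted p = 0.000114), and the repressor E2f7 was lower by 1.40 (-1.40 ± 0.325, edgeR adjusted p = 0.00394). After long-term culture 2 of the 22 were higher and 1 lower, against 20.5% and 19.1% of all genes. The lower gene was again Ccne2, with the largest of these 3 differences (-1.19 ± 0.428, edgeR adjusted p = 0.0446). Cdk4, the kinase partner of the D cyclins, was 0.31 ± 0.103 higher in Ctsd-/- cells (edgeR adjusted p = 0.033) and Tfdp2, an E2F partner, 0.48 ± 0.148 higher (edgeR adjusted p = 0.0227). Of the 3 remaining CDK inhibitor genes, Cdkn2d for p19Ink4d (-1.29 ± 0.339, edgeR adjusted p = 0.00803) and Cdkn3, a phosphatase of CDK2 (-1.30 ± 0.366, edgeR adjusted p = 0.0116), were lower in Ctsd-/- cells in 1% FCS and none was called in 1% FCS LT. Cdkn1c for p57 rose in the Ctsd+/+ line with time, from 1.09 ± 0.0385 to 4.22 ± 2.24 CPM (1.95 ± 0.419, edgeR adjusted p = 0.00256).

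**Figure D5:**
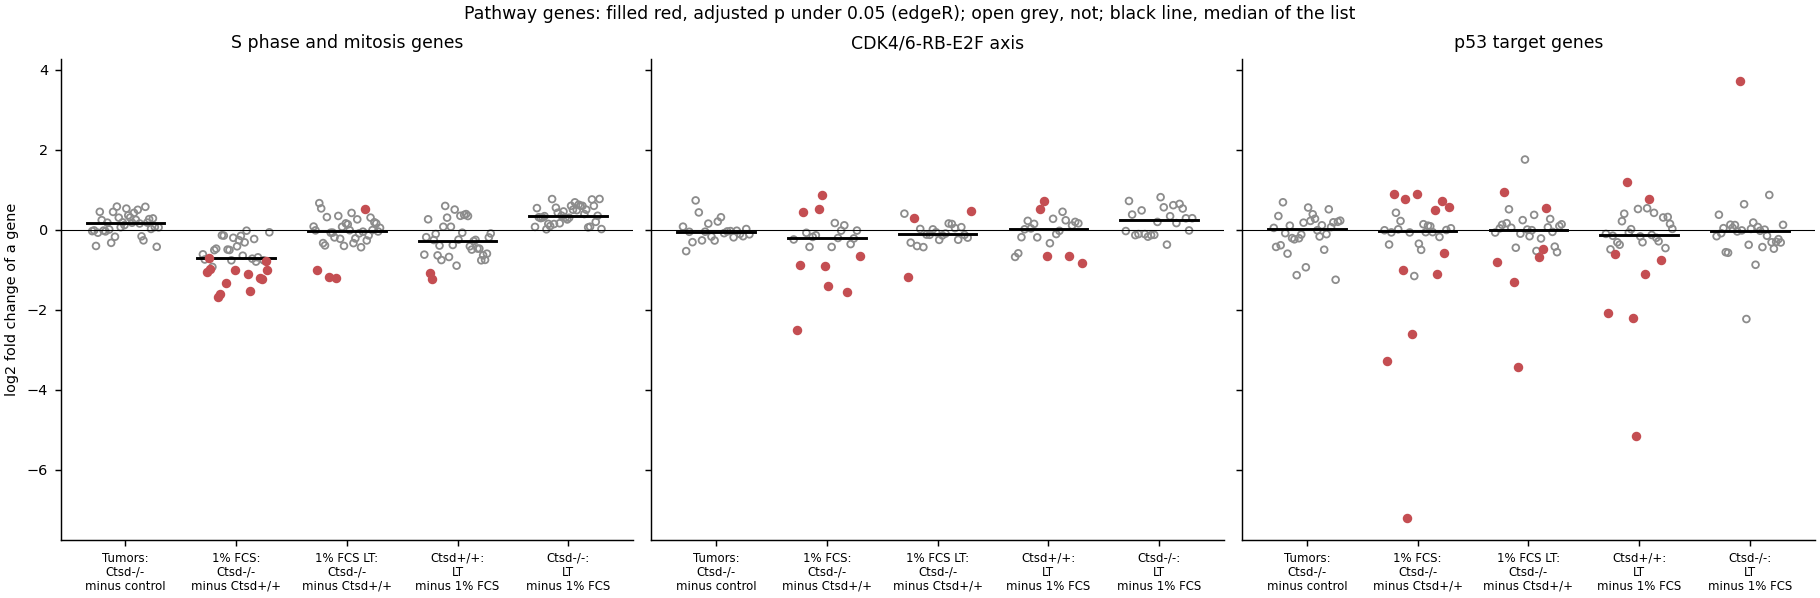
Log2 fold change (y axis) of every tested gene of 3 lists in 5 comparisons (x axis), from the edgeR fits, with the median of each list as a black line. Filled red points passed an adjusted p of 0.05. The S phase and mitosis genes have their lowest median, -0.71, between the lines in 1% FCS, and the p53 target genes scatter on both sides of 0.

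The 30 p53 target genes other than Cdkn1a and Mdm2 did not move in 1 direction: 6 were higher and 6 lower in Ctsd-/- cells in 1% FCS (median -0.03), and 2 higher and 5 lower in 1% FCS LT (median 0.001), against 23.5% and 25.1%, and 20.5% and 19.1%, of all genes. Single targets differed strongly. Eda2r, a receptor of the tumor necrosis factor family, had 89.2 ± 24.6 CPM in 1% FCS Ctsd+/+ cells and 0.590 ± 0.171 CPM in Ctsd-/- cells (-7.22 ± 0.841, edgeR adjusted p = 3.22e-05). Ak1, an adenylate kinase, fell from 88.6 to 9.18 CPM between these groups (-3.27 ± 0.221, edgeR adjusted p = 6.06e-07), and the death receptor gene Fas from 8.31 to 1.35 CPM (-2.61 ± 0.445, edgeR adjusted p = 0.000517). The proapoptotic gene Bbc3 (Puma) was higher in Ctsd-/- cells in 1% FCS LT, 20.7 ± 2.17 against 10.8 ± 2.40 CPM (0.94 ± 0.175, edgeR adjusted p = 0.00124), where Eda2r (-3.42 ± 0.662, edgeR adjusted p = 0.0016) and Dcxr (-1.29 ± 0.266, edgeR adjusted p = 0.00235) were lower. Of 19 tested regulators and relatives of p53, 6 were higher and 3 lower in 1% FCS and 4 higher and 1 lower in 1% FCS LT, against 48.5% and 39.6% of all genes called in either direction. Trp53bp1, which binds p53 and marks DNA breaks, had 87.1 ± 1.95 CPM in 1% FCS LT Ctsd-/- and 44.2 ± 3.51 CPM in Ctsd+/+ cells (0.98 ± 0.0950, edgeR adjusted p = 1.21e-05), and Hipk2, a kinase that phosphorylates p53, 90.4 ± 7.34 against 212 ± 25.6 CPM (-1.23 ± 0.137, edgeR adjusted p = 3.44e-05). Trp63, the p53 relative of basal epithelium, was low in all cells, at 1.45 ± 1.18 CPM in 1% FCS Ctsd+/+ and 0.0517 ± 0.0450 CPM in Ctsd-/- cells.

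Known regulators of the Cdkn2a and Cdkn2b locus, 18 of which could be tested, were called in both directions: 6 higher and 4 lower in 1% FCS Ctsd-/- cells, and 5 higher and 5 lower in 1% FCS LT, against 23.5% and 25.1%, and 20.5% and 19.1%, of all genes. Tbx3, a repressor of p19Arf, was at 11.6 ± 1.80 CPM in 1% FCS Ctsd+/+ cells, 0.686 ± 0.0913 CPM in 1% FCS LT Ctsd+/+ cells and 20.3 ± 2.21 CPM in 1% FCS LT Ctsd-/- cells, a long-term genotype difference of 4.88 ± 0.240 (edgeR adjusted p = 1.46e-07). In the Ctsd+/+ line it fell with time by 4.08 on the log2 scale (-4.08 ± 0.235, edgeR adjusted p = 2.68e-07). Cbx2, a Polycomb subunit, was lower in 1% FCS LT Ctsd-/- cells (23.3 ± 3.45 against 66.6 ± 16.0 CPM; -1.52 ± 0.217, edgeR adjusted p = 0.000205), and Rnf2, the Polycomb ubiquitin ligase, higher (49.3 ± 3.65 against 24.3 ± 3.00 CPM; 1.02 ± 0.115, edgeR adjusted p = 3.71e-05). Ets2, an activator of p16Ink4a, and Cbx7, a Polycomb repressor of the locus, were higher in 1% FCS Ctsd-/- cells (1.14 ± 0.135 and 1.03 ± 0.170, edgeR adjusted p = 3.56e-05 and 0.000418), and Id1, an inhibitor of helix-loop-helix activators, lower (-2.12 ± 0.602, edgeR adjusted p = 0.0121).

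Genes that set the turnover of cyclin D, p21 and p27 proteins were called for 6 of 18 in 1% FCS, 2 higher and 4 lower in Ctsd-/- cells, and for 7 of 18 in 1% FCS LT, 4 higher and 3 lower, where 48.5% and 39.6% of all genes were called. Skp2, the F-box protein that marks p27 for degradation, had 24.6 ± 7.08 CPM in 1% FCS Ctsd+/+ and 11.7 ± 1.47 CPM in Ctsd-/- cells (-1.07 ± 0.195, edgeR adjusted p = 0.000806). Fbxo31, an F-box protein for cyclin D1, was lower in Ctsd-/- cells at both times (-0.53 ± 0.158 and -1.09 ± 0.158, edgeR adjusted p = 0.0155 and 0.000231), and Ambra1, the substrate receptor for all 3 D cyclins, was higher in 1% FCS LT (0.57 ± 0.119, edgeR adjusted p = 0.00261). Of 14 tested senescence-associated genes, 3 were higher and 6 lower in 1% FCS Ctsd-/- cells and 7 higher and 3 lower in 1% FCS LT, against 23.5% and 25.1%, and 20.5% and 19.1%, of all genes. Il6 was listed at 0.314 to 3.39 CPM in 1% FCS Ctsd+/+ libraries and at 0 in the Ctsd-/- libraries of that time. Igfbp3, a growth factor binding protein, stood at 10.5 ± 1.65 CPM in 1% FCS and 247 ± 107 CPM in 1% FCS LT Ctsd+/+ cells and at 0.0887 CPM or less in every Ctsd-/- library. Mmp3, a matrix protease, was higher in Ctsd-/- cells at both times (4.40 ± 0.854 and 5.48 ± 0.834, edgeR adjusted p = 0.00125 and 0.00032).

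The genes whose profile over the 12 cell libraries was most like that of a variable member were found by the root mean square difference of mean-centred log2 CPM. For Ccnd2 these were Gm43719, Adra1b and Rtl8c (0.483, 0.498 and 0.548, against a median over all genes of 2.50). Ccnd1 was followed most closely by Dusp7, Stn1 and Cystm1 (0.211 to 0.260, median 0.935) and Cdkn2a by Urah, Crybg2 and Ptpn6 (0.243 to 0.331, median 1.56). For Cdkn2b they were Hoxb5, Hoxb2 and a, the nonagouti gene (0.635 to 0.916, median 4.82), and for Cdkn2c Paqr4, Sipa1l2 and Slc25a10 (0.261 to 0.326, median 0.910). Hoxb5 had 30.5 ± 3.10 CPM in 1% FCS Ctsd-/- cells and 0.0540 CPM or less in every Ctsd+/+ library. Likeness over 12 libraries of 2 lines is a description.

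In the tumors none of the 10 genes passed the threshold (edgeR, adjusted p under 0.05), nor with DESeq2 or limma-voom. Over all 18617 genes 0.00537% did with edgeR, which is 1 gene, while DESeq2 called 265 genes and limma-voom 2. At an unadjusted p under 0.1, the second rule used for tumors, the 3 D cyclin genes were higher and Cdkn2a lower in MMTV-cre;Ctsd-/- tumors, against 8.44% and 8.27% of all genes. None of the 10 had groups without overlap, as 4.15% of all genes did. Cdkn2a had 1.99, 0.618, 2.75 and 1.07 CPM in control and 0.197, 0.492, 0.659 and 0.133 CPM in MMTV-cre;Ctsd-/- tumors, which overlap by 1 pair (-2.11 ± 0.640, edgeR adjusted p = 0.463). Cdkn2b had 7.79, 9.11, 11.6 and 17.2 CPM in control and 12.7, 6.93, 5.27 and 4.00 CPM in MMTV-cre;Ctsd-/- tumors (-0.66 ± 0.392, edgeR adjusted p = 0.616). Both lay lower on average in the MMTV-cre;Ctsd-/- tumors, the opposite sign to the cells. The unadjusted p (edgeR) was 0.00781 for Cdkn2a and 0.122 for Cdkn2b, and neither passed after adjustment. Cdkn2c was read at 24.0, 28.8, 55.3 and 47.0 CPM in control and at 45.7, 25.6, 74.99 and 117 CPM in MMTV-cre;Ctsd-/- tumors (0.76 ± 0.440, edgeR adjusted p = 0.610).

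The D cyclins of the tumors were higher on average in the MMTV-cre;Ctsd-/- group without passing the threshold. Ccnd1 had 77.9, 55.0, 44.6 and 46.6 CPM in control and 72.6, 68.6, 64.6 and 97.7 CPM in MMTV-cre;Ctsd-/- tumors, with control replicate 1 inside the other group (0.44 ± 0.232, edgeR adjusted p = 0.590). For Ccnd2 the values were 61.1, 50.4, 29.0 and 27.2 CPM against 39.7, 37.9, 107 and 143 CPM (0.97 ± 0.460, edgeR adjusted p = 0.569), and for Ccnd3 34.3, 45.0, 39.6 and 29.8 CPM against 35.6, 63.3, 53.2 and 59.1 CPM (0.50 ± 0.226, edgeR adjusted p = 0.556). Per length, Ccnd2 made up 21.04% ± 3.56 (SD, n = 4) of the D cyclin sum in control and 26.4% ± 11.2 in MMTV-cre;Ctsd-/- tumors, so that a mix of D cyclins was present in both. The tumor counts were taken without strand, which in the cell libraries kept 77.0% to 81.0% of Ccnd1, 91.3% to 94.4% of Ccnd2 and 78.5% to 82.2% of Ccnd3, whose exons overlap genes of the opposite strand, and shares of tumors and cells are therefore not on 1 scale.

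The remaining 4 genes did not reach an unadjusted p under 0.1 in the tumors. Cdkn1a had 153, 77.3, 89.9 and 74.0 CPM in control and 65.1, 274, 151 and 79.7 CPM in MMTV-cre;Ctsd-/- tumors (0.53 ± 0.441, edgeR adjusted p = 0.702), and Cdkn1b 31.4, 48.0, 55.0 and 78.4 CPM against 63.8, 37.3, 26.5 and 33.9 CPM (-0.40 ± 0.331, edgeR adjusted p = 0.702). Trp53 ranged from 132 to 403 CPM in control and from 157 to 344 CPM in MMTV-cre;Ctsd-/- tumors (0.09 ± 0.371, edgeR adjusted p = 0.946). Mdm2, which varied least, ranged from 37.9 to 45.7 and from 33.4 to 46.5 CPM (-0.06 ± 0.177, edgeR adjusted p = 0.925). Of the 8 lists of related genes, none had a member called in the tumors with edgeR. In bulk tumors fewer cells of a type and less RNA per cell cannot be told apart. All 10 white adipocyte markers were higher on average in the MMTV-cre;Ctsd-/- tumors, with sums of 4094 to 27109 CPM against 894 to 5992 CPM. With their mean as a covariate the differences of Ccnd2, Cdkn2c and Mdm2 changed sign (-0.48 ± 0.636, -0.32 ± 0.696 and 0.15 ± 0.273). That of Cdkn2a was -0.87 ± 1.05 and that of Cdkn1a 1.34 ± 0.593. Those of Ccnd1, Cdkn1b, Cdkn2b and Trp53 were 0.26, -0.26, -0.27 and 0.37, and Ccnd3 gave 0.46. Each had an edgeR adjusted p of 0.988. With the luminal markers as the covariate no difference changed sign and none was called. There Cdkn2a gave -2.26 ± 0.766, Ccnd2 1.02 ± 0.743 and Cdkn2c 0.65 ± 0.643. Also higher on average were 7 of 7 endothelial markers (5 at an unadjusted p under 0.1, median 1.19), 8 of 8 fibroblast markers (2 at that p, median 0.44) and 6 of 7 basal markers (2 at that p, median 0.85), none of them called with edgeR. The part of these markers in the tumor results was not tested beyond the adipocyte and luminal covariates. The library codes in the labels also separate the tumor genotypes completely, so code and genotype cannot be told apart.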

How the data were processed

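RNA of 8 tumors and 12 libraries of cultured cells had been sequenced on the HiSeq platform. After trimming, the authors aligned reads to GRCm38/mm10 with STAR and deposited raw counts per gene for each library, without pooling replicates. The STAR version and the annotation were not given in the sources used here. Unstranded counts were used for the tumors and opposite-strand counts for the cells, since the strand columns of the files differed in this way, and the rows that name no gene were left out. Symbols came from GENCODE M21, which held 45143 of the 45706 identifiers.

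Counts were analysed with edgeR 4.0.16 in R 4.3.3 (normalisation by the trimmed mean of M values, filterByExpr, quasi-likelihood test, Benjamini-Hochberg adjustment over all genes tested). All adjusted p-values are from this fit unless another tool is named. The tumors formed 1 fit and the 12 cell libraries another, and no test was made between tumors and cells. Genes were called at an adjusted p under 0.05, and for tumors an unadjusted p under 0.1 was also counted. Groups came from the labels, and p-values for the cells measure the spread between repeat cultures of 1 line per genotype. A group at 0 was given a floor of 3 counts per library. The self-test on simulated counts preceded the fits. Alternatives were DESeq2 1.42.0, limma-voom (limma 3.58.1), other size factors and filters, unstranded counts, the library code as a term or a selection, marker covariates in tumors, only the groups compared, a replicate block and each replicate left out.

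All 10 genes were named, with up to 3 genes per related list and comparison by the size of the change among called genes whose groups did not overlap (for the difference of differences, among called genes), and for genes spanning more than 1 log2 unit over the cell groups the 3 most alike. Not all genes that the rule selected are reported here. The genes and lists were chosen with earlier results of these data known.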

Additional observations from a re-analysis of the deposited data

Results flagged for a closer look

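For 3 of the 10 genes the difference between Ctsd-/- and Ctsd+/+ cells itself differed between culture times in the edgeR interaction test, in which 30.3% of all genes were called. The value, the log2 difference in 1% FCS LT minus that in 1% FCS, was -2.77 for Cdkn2a, -1.10 for Ccnd1 and 3.60 for Ccnd2. For all 3 genes the difference was closer to 0 in 1% FCS LT. The luminal markers moved in the same test, with 8 of 8 tested markers called downward, as did 3 of 5 tested fibroblast markers upward, and their part in these values was not tested. No tumor library stood apart from its group in any of 20 groups of 4 tested, and groups of 3 cannot be tested in this way.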

How the results depend on the processing

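Of 19 called results of the 10 genes, 15 kept their call and direction in every setting run, 4 lost the call in at least 1 setting (Ccnd3 and Trp53 between the lines in 1% FCS LT, Cdkn2b with time in Ctsd-/- cells and Cdkn2c with time in Ctsd+/+ cells), and 0 reversed. Of 39 results that were not called, 7 were called in at least 1 setting and 18 changed sign, none of them with a call. The causes were not tested.

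The number of genes called with time in Ctsd-/- cells, 1 in the report, was 2 with DESeq2, 2 with no filter, 2 in the 8 libraries of 1 code, 3 with the code as a term, 3 with only the groups compared, and 0 with at least 10 counts in every sample, a filter that removes Cdkn2b. It ran from 0 to 1 with a replicate left out. Over all genes, 1084 of 15178 were called with DESeq2, 680 of 27376 with no filter and 756 of 15166 in the 8 libraries of 1 code. With the code as a term 1198 of 15178 were called, with only the groups compared 543 of 13969, and with at least 10 counts 250 of 12171.

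Log2 values that changed sign were, with the adipocyte covariate in tumors, Cdkn2c -0.32, Ccnd2 -0.48 and Mdm2 0.15. In the 8 libraries of 1 code they were Mdm2 in 1% FCS LT 0.0857, Ccnd2 0.68 and Ccnd3 -0.16 with time in Ctsd-/- cells, Cdkn1a -0.18 and Mdm2 -0.00112 with time in Ctsd+/+ cells, and Cdkn2c -0.19 for the interaction. With the code as a term they were Ccnd2 0.39 and Cdkn1a -0.16. With time in Ctsd-/- cells Ccnd1 gave 0.0119 with limma-voom, 0.00333 with no filter, 0.00896 with at least 10 counts, 0.0140 with the replicate block, 0.00713 with unstranded counts and 0.000531 with only the groups compared, and Ccnd2 gave 0.0108 with limma-voom and 0.0627 with the replicate block.

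With a replicate left out the sign changed within these ranges: in tumors Cdkn1a -0.00237 to 0.83, Trp53 -0.11 to 0.50 and Mdm2 -0.13 to 0.0281. Between the lines they were Cdkn1b -0.30 to 0.00793 in 1% FCS, and Cdkn1b -0.0729 to 0.14 and Mdm2 -0.30 to 0.21 in 1% FCS LT. With time they were Ccnd1 -0.13 to 0.18, Ccnd2 -0.42 to 0.69 and Ccnd3 -0.12 to 0.17 in Ctsd-/- cells, and Cdkn1a -0.17 to 0.22, Cdkn1b -0.00771 to 0.27, Ccnd3 -0.0240 to 0.22 and Mdm2 -0.10 to 0.41 in Ctsd+/+ cells. For the interaction they were Cdkn2c -0.0940 to 0.37, Ccnd3 -0.22 to 0.0623 and Trp53 -0.0505 to 0.23.

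With the replicate number as a block, 0 of the 10 genes were called in tumors, 5 in 1% FCS, 7 in 1% FCS LT, 1 and 4 with time in Ctsd-/- and Ctsd+/+ cells and 3 for the interaction. Over all genes 1 of 18617 was called in tumors with the block. Of 15178 genes in the cells, 7479 were called in 1% FCS, 6170 in 1% FCS LT, 397 and 7156 with time in Ctsd-/- and Ctsd+/+ cells and 4719 for the interaction. Same-numbered samples did not deviate together throughout (lowest correlation -0.30 in tumors, 0.10 in 1% FCS and 0.00181 in 1% FCS LT). Their mean correlation was 0.254 between the lines in 1% FCS and 0.0636 in 1% FCS LT. Between the times it was 0.147 in Ctsd-/- cells and -0.0792 in Ctsd+/+ cells, and in tumors it was -0.111. Pairs with other numbers give no separate comparison, because the correlations used deviations from group means, which cancel within a group. The numbers were not taken as pairs in the main fits. No interaction result and no result with time in Ctsd+/+ cells are given for Cdkn2b, because all its Ctsd+/+ counts were 0.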

Other observations

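Among the neighbours of Cdkn2a and Cdkn2b on chromosome 4, singled out after their values were seen, Focad, which encodes focadhesin, had 30 to 76 counts in 1% FCS LT Ctsd+/+ cells, against 909 to 1209 in 1% FCS Ctsd+/+ cells and 802 to 860 in 1% FCS LT Ctsd-/- cells. The long-term genotype difference was 4.01 on the log2 scale (edgeR adjusted p = 4.76e-07). Mtap differed in opposite directions at the 2 times, by -1.16 in 1% FCS (edgeR adjusted p = 0.000167) and by 0.74 in 1% FCS LT (edgeR adjusted p = 0.00478).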
